A study of Homo sapiens with 24 samples.

Results

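HK2 is an immortalised human proximal tubule cell line, and MUT35 is a single-cell HK2 clone in which endogenous VHL was mutated with CRISPR-Cas9. The clone carries a VHL transgene that is expressed in the presence of dox (doxycycline), so that withdrawing dox removes VHL. The MUT35 comparison uses 8 of the 24 libraries of the series, and its members are the 4 libraries grown with dox (dox on) and the 4 without it (dox off), chosen by their titles and treatment labels alone. The labels name the genotype of the dox off libraries as VHL mutant and that of the dox on libraries as WT, after the transgene. The other 16 libraries are 4 with dox and 4 without it from each of WT8, an HK2 clone described as keeping endogenous VHL and carrying the same dox-dependent transgene, and MUT10, the other VHL-null clone. All 3 clones lost dox as well as the transgene's VHL in the dox off state, each is a single clone, and neither the time after withdrawal nor whether replicates were separate cultures is given in the sources used here, so p-values measure the spread between these libraries. The comparison asks how gene expression changes when VHL is lost in this clone, and WT8 gives the response to the same withdrawal in a clone labelled WT. Descriptions of WT8 differ: the genotype label of its dox off libraries is WT and the study's text calls it a control with intact VHL, while its methods list WT8 among the CRISPR-mutated clones and the series' design text counts its dox off libraries with the knockouts. WT8 is used here by its label, and the state of its endogenous VHL was not tested.

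VHL is the substrate-recognition part of a ubiquitin ligase. In the presence of oxygen, the EGLN prolyl hydroxylases modify the alpha subunits of hypoxia-inducible factor (HIF), and VHL binds the hydroxylated subunits and marks them for degradation. Without VHL, the HIF alpha subunits HIF1A and EPAS1 (HIF2A) accumulate as protein, pair with ARNT and bind DNA at sites with the core letters ACGTG or GCGTG, where they raise genes for glycolysis, angiogenic factors, mitophagy and matrix modification. Loss of VHL is the defining event of clear cell renal cell carcinoma, which arises from tubule epithelium.

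The 8 libraries held 8569272 to 9309491 counts with dox off and 9126623 to 14570609 with dox on. Expression is given as CPM (a gene's share of its library's TMM-scaled total). A gene was called, here written as rose or fell, at an adjusted p under 0.05 in a quasi-likelihood model fitted with edgeR over all 24 libraries (Benjamini-Hochberg). Each library's log2 CPM had a slope with transcript GC content, which was 0.157 to 0.297 per 10 percentage points in the dox off libraries and -0.340 to -0.199 in the dox on libraries, relative to the mean library over 9338 genes. RNA18S5, an 18S ribosomal RNA, took 0.311 to 0.397% of the counts with dox off and 0.173 to 0.253% with dox on. RNA18S5 and the GC slope divided WT8 and MUT10 by dox state in the same direction. The MUT10 slopes nearly met, at -0.009 in dox off replicate 4 and -0.031 in dox on replicate 2. Dox state and any difference in RNA or library preparation that goes with it therefore cannot be told apart within a clone. Of 24 proximal tubule markers, 16 stayed under 1 CPM in all 8 libraries and 6 had no count, while the kidney lineage factor PAX8 (431 ± 19 CPM, SD, n = 4, with dox off) was abundant. The summed list was at 551 to 608 CPM with dox and at 984 to 1089 without it. The labels also give a lung tissue, but 10 of 12 lung epithelial markers stayed under 1 CPM, and the whole list summed to 1.73 to 2.87 CPM in any library. SFTPC and NKX2-1, which define lung epithelium, had no count. Summed endothelial markers were at 3.24 to 4.27 CPM with dox and 6.03 to 8.71 without it, fibroblast markers at 68.3 to 73.1 and 69.1 to 79.6, and leukocyte markers at 157 to 187 and 167 to 186, with 7 of 8, 4 of 7 and 5 of 8 genes under 1 CPM. The part of these markers and of RNA18S5 in the results below was not tested.

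VHL is on chromosome 3 of hg38, from 10141778 to 10153667 on the plus strand. In MUT35 it was at 227, 267, 229 and 192 CPM with dox and at 18.3, 17.8, 18.6 and 18.1 after withdrawal. All dox on libraries lay above all dox off libraries, and the mean was 12.6-fold lower after withdrawal. A 2-sided exact permutation test over the 8 libraries gave p = 0.0286, which is as low as 4 against 4 can reach. The remaining 18.2 ± 0.36 CPM (SD, n = 4) cannot be divided between the mutated endogenous gene and the transgene, since counts are given per gene symbol. The log2 fold change was -3.65 (SE 0.095, adjusted p = 4.11e-20) in MUT35, against -2.87 in WT8 and -3.67 in MUT10. VHL was left at 29.97 ± 3.1 CPM in WT8 and at 29.99 ± 3.1 in MUT10 after withdrawal, so its mRNA level does not tell an intact from a mutated endogenous gene.

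Of 13900 genes tested, 8790 (63.2%) changed in MUT35. Withdrawal raised 4442 genes (32%) and lowered 4348 (31.3%), and in 8235 genes (59.2%) the 4 dox off libraries did not overlap the 4 dox on libraries. Changes over 2-fold numbered 778 higher (5.6%) and 543 lower (3.91%). The median log2 fold change was 0.014 over all genes tested, and the median size of a called change was 0.57. Of the 8790 genes, 6356 were also called in the same direction in WT8. The difference between the MUT35 and the WT8 changes, tested as an interaction, passed the threshold in 1539 genes (11.1%), 804 higher (5.78%) and 735 lower (5.29%).

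GC content went with the changes within MUT35 but not with their difference from WT8. Genes were split into 5 equal bins by transcript GC content, and the median log2 fold change in MUT35 was -0.47, -0.24, -0.018, 0.29 and 0.61 from the lowest to the highest bin. The medians of the difference from WT8 in the same bins were -0.0099, 0.0041, -0.014, -0.00016 and 0.0079. Removing each library's GC trend, an alternative for the 13467 genes of known GC content, called 3624 genes higher (26.9%) and 3572 lower (26.5%). Of the genes called, 5112 were called in the same direction both ways and 395 in opposite directions. The main groups of genes below are therefore given by their change in MUT35, by the same count with the GC trend removed, and by their difference from WT8. Their counts are to be read against all genes tested, of which 32% rose and 31.3% fell in MUT35. The dox states did not overlap in 59.2%, and the difference from WT8 was higher in 5.78% and lower in 5.29%.

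**Figure D1:**
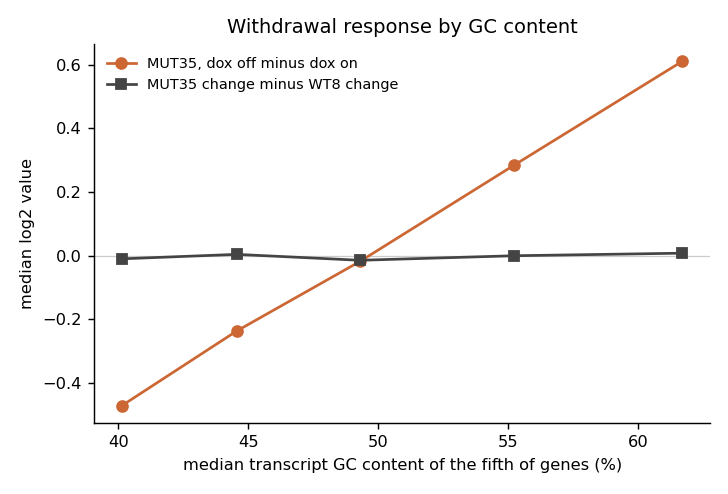
Median log2 value (vertical axis) of the genes in each of 5 equal bins of transcript GC content, plotted at the bin's median GC content in percent (horizontal axis). Circles are the log2 fold change of MUT35, dox off minus dox on, which climbs from -0.47 to 0.61, and squares are the difference between the MUT35 and WT8 changes, which stays near 0.

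Beside VHL, 3 of the other 4 genes of its ubiquitin ligase fell in MUT35 and in WT8 alike. ELOC (TCEB1 in the file) and CUL2, which link VHL to the rest of the ligase, and RBX1, its RING subunit, fell by 1.24, 0.58 and 0.69 on the log2 scale, with dox on and dox off libraries apart, and they fell in WT8 too (-1.21, -0.49 and -0.63) and their differences from WT8 did not pass the test (adjusted p = 0.96, 0.77 and 0.86). ELOB (TCEB2) had a log2 fold change of 0.21 that did not pass (adjusted p = 0.087) and turned to -0.25 (adjusted p = 0.0021) with the GC trend removed, where all 5 ligase genes were lower. HIF1A mRNA was at 2293, 2318, 2427 and 2319.5 CPM with dox and at 1449, 1382, 1465 and 1228 after withdrawal. It fell by 0.76 on the log2 scale (adjusted p = 2.43e-09), and by more than in WT8 (difference -0.35, adjusted p = 0.022). EPAS1 was at 259.6, 294, 271 and 271 CPM with dox and at 295, 317, 298 and 301 after withdrawal, a log2 fold change of 0.15 (SE 0.058, adjusted p = 0.033) that turned to -0.13 (adjusted p = 0.0058) with the GC trend removed. The EPAS1 call was lost in 6 alternatives, with adjusted p up to 0.177. The EPAS1 change was smaller than in WT8 (0.44, difference -0.29, adjusted p = 0.02) and than in MUT10 (1.53, difference -1.39, adjusted p = 5.33e-12). ARNT rose, at a log2 fold change of 0.35 (SE 0.066, adjusted p = 5.84e-05), and its difference from WT8 did not pass (adjusted p = 0.46). ARNT2, its paralogue, was low, at 3.91 CPM with dox and 6.53 after withdrawal, a log2 fold change of 0.74 (SE 0.18, adjusted p = 0.0011). HIF3A did not pass the filter on low counts, with at most 7 counts in any MUT35 library.

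The HIF hydroxylases include targets of HIF, and 2 of the 4 differed from WT8. EGLN1 (PHD2), the main hydroxylase of HIF1A, was at 78.03, 67.2, 78.9 and 71.8 CPM with dox and at 103, 91.8, 104 and 109 after withdrawal. EGLN3 (PHD3) was at 4.32, 6.12, 5.83 and 6.15 CPM with dox and at 9.799, 8.96, 9.97 and 9.57 after withdrawal. Both had higher values in every dox off library than in any dox on library, with log2 fold changes of 0.46 (adjusted p = 9.13e-05) and 0.76 (adjusted p = 6.45e-05), and both exceeded the WT8 change, by 1.02 (SE 0.13, adjusted p = 3.35e-06) and 1.01 (SE 0.23, adjusted p = 0.0037). The rise of EGLN3 was smaller than in MUT10 (difference -0.96, adjusted p = 0.0014). EGLN2 rose by a log2 fold change of 0.28 (adjusted p = 0.015) but was at -0.38 (adjusted p = 0.0014) with the GC trend removed, and HIF1AN, the asparaginyl hydroxylase, rose by 0.20 (adjusted p = 0.016). The calls on EGLN2 and HIF1AN were each lost in 2 alternatives, with adjusted p up to 0.0696 and 0.104.

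Genes linked to HIF rose as a group. Of 105 such genes in 7 lists, 98 passed the filter on low counts, and ALDOC, NDUFA4L2, COX4I2, EPO, STC1, CXCL12 and CXCR4 did not. In MUT35 73 rose and 15 fell, beside 32% and 31.3% of all genes. The median log2 fold change of the 98 was 0.71, against 0.014 over all genes. With the GC trend removed, 68 rose and 12 fell. In WT8 the same 98 genes divided into 36 that rose and 30 that fell, with a median of 0.0027. The difference from WT8 was higher in 56 and lower in 2 (median 0.54), beside 5.78% and 5.29% of all genes. The difference from MUT10 was higher in 6 and lower in 40 (median -0.27), beside 4.41% and 6.7% of all genes. The lists were drawn up with earlier results of these data known, so these counts describe them and are no independent support for a direction.

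Promoters are shown for 4 of the 5 HIF-linked genes named by rule whose rise exceeded that of WT8 by most (that of NDRG1, the other of the 5, is not shown here), as the stretch from 250 bases before to 50 bases after the start of the gene (RefSeq, GRCh38.p14, coding strand, 5′ to 3′). Capitals mark ACGTG or GCGTG on either strand (CACGT or CACGC when read on the strand shown). A CACGTG would count for both strands, and none of the 4 stretches held one. The genes are CA12 (chr15:63381797-63382096, minus strand), ADM (chr11:10304823-10305122, plus), PFKFB4 (chr3:48556754-48557053, minus) and ENO2 (chr12:6914330-6914629, plus).
CA12: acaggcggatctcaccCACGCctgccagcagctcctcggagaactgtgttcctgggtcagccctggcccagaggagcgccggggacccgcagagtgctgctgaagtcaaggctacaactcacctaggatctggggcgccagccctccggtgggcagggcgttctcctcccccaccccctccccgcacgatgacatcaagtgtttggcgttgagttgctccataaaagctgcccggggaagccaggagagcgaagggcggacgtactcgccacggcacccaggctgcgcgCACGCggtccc
ADM: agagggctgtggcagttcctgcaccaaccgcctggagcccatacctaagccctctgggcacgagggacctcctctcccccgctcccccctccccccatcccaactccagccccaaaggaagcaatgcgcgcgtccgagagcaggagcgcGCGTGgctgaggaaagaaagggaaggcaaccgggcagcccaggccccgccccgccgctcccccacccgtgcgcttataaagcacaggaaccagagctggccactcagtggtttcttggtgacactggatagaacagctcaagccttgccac
PFKFB4: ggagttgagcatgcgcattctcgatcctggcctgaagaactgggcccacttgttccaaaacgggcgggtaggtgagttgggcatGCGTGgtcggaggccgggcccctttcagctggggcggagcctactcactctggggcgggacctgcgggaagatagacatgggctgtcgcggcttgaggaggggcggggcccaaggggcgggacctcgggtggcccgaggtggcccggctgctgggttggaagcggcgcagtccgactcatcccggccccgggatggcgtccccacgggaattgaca
ENO2: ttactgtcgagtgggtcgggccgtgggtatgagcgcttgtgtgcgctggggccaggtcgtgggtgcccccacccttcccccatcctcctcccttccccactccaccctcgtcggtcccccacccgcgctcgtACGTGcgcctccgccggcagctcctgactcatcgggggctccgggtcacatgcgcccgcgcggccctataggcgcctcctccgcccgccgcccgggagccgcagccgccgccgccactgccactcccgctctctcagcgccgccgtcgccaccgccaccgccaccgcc
The CA12 promoter held 2 such matches and the ADM, PFKFB4 and ENO2 promoters 1 each, with ACGTG in ENO2 and GCGTG or its reverse in the other 3. At least 1 match was present in 13062 of 27305 promoters in the table (47.8%), in 6383 of 10269 promoters found by symbol for the genes tested (62.2%), and in 62 of 82 found for the HIF-linked genes tested (75.6%). These short matches are a description of the letters and not of binding, which was not measured.

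Genes of glucose uptake and glycolysis rose. Of the 18 genes tested, 17 rose and 1 fell, with a median log2 fold change of 0.87. Correction for GC content gave 15 higher and 1 lower, and in the difference from WT8 it was 14 higher and 0 lower. SLC2A1 (GLUT1), the main glucose transporter, was at 240.1, 248, 212 and 227 CPM with dox and at 688, 740.4, 669 and 743 after withdrawal. It rose 3.06-fold, at a log2 fold change of 1.62 (SE 0.094, adjusted p = 5.17e-13), which was 1.11 above WT8 (adjusted p = 9.83e-07). PFKFB4, which makes the activator of phosphofructokinase, was at 10.8, 11.4, 10.4 and 11.4 CPM with dox and at 40.9, 48.01, 41.1 and 43.9 after withdrawal. The PFKFB4 groups lie far apart, and its log2 fold change of 1.98 (SE 0.12, adjusted p = 7.02e-13) compares with -0.02 in WT8 and 3.095 in MUT10. ENO2, the enolase isoenzyme known from neurons, was at 71.99, 72.2, 62.1 and 68.4 CPM with dox and at 255, 296, 269.6 and 296 after withdrawal, a log2 fold change of 2.02 (SE 0.1, adjusted p = 3.16e-14), against 0.29 in WT8. PGK1, which makes the first ATP of the pathway, was at 1035, 992, 1115 and 1116 CPM with dox and at 2010.3, 2125, 2192 and 2104 after withdrawal. PGK1 rose by 1.99-fold in MUT35 (log2 fold change 0.99, SE 0.059) and fell in WT8 (-0.23), a difference of 1.22 (adjusted p = 6.58e-11).

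The most abundant enzymes rose as well. GAPDH went from 7857 ± 429.6 to 17185 ± 1003 CPM (SD, n = 4), TPI1 from 409 to 970.1 and ENO1 from 2809 to 4581, at log2 fold changes of 1.13, 1.25 and 0.71, and each exceeded its WT8 change (adjusted p = 7.20e-04, 2.15e-06 and 1.13e-06). ALDOA also rose, by 1.16, but its WT8 change was 0.85 and the difference did not pass (adjusted p = 0.35). The hexokinases HK1 and HK2, which trap glucose in the cell, rose by 0.61 and 0.34, and PFKL, the liver phosphofructokinase, by 1.21. PFKM, the muscle isoform, was the member that fell, from 26.2 to 22.4 CPM, with overlapping libraries. The PFKM call was lost without dox on replicate 2 or 4 and without dox off replicate 1 or 4 (adjusted p = 0.0521, 0.0733, 0.105 and 0.12). PFKP and PKM rose by 0.39 and 0.30 but were at -0.01 and -0.08 with the GC trend removed, where neither passed. ALDOC was under the filter, with at most 7 counts.

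**Figure D2:**
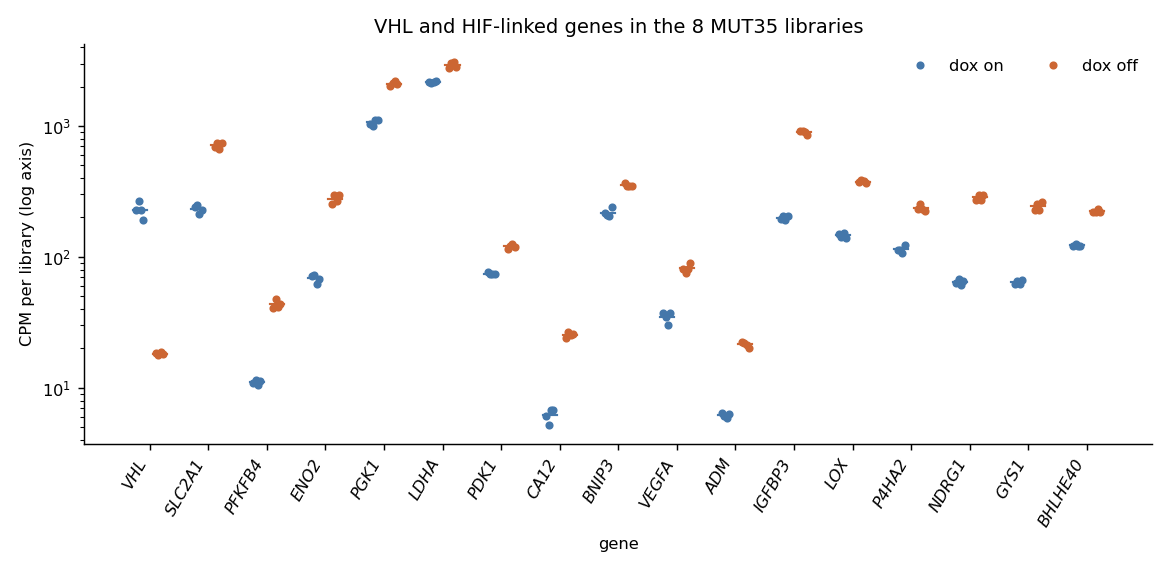
CPM per library on a log axis (vertical) for VHL and 16 HIF-linked genes (horizontal) in MUT35, with dox (blue) and after withdrawal (orange). Points are the 4 libraries of each state and short lines their means; VHL falls to about 18 CPM while each of the other genes lies higher in every dox off library than in any dox on library.

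Genes that decide the fate of pyruvate moved in both directions, as did the genes tested as a whole. Of 13 tested, 5 rose and 6 fell, beside 32% and 31.3% of all genes. With the GC trend removed, 6 were higher and 5 lower, beside 26.9% and 26.5% of all genes. The difference from WT8 was higher in 4 and lower in 0, beside 5.78% and 5.29% of all genes. PDK1, a kinase that switches off pyruvate dehydrogenase, was at 76.95, 73.9, 74.2 and 73.6 CPM with dox and at 116, 122, 125 and 118 after withdrawal. LDHA, which turns pyruvate into lactate, was at 2150.0, 2121, 2157 and 2203 CPM with dox and at 2779.7, 3019.9, 3072 and 2820.3 after withdrawal. Both fell in WT8 (-0.32 and -0.25) and rose in MUT35 (0.69 and 0.44), which made differences of 1.01 (adjusted p = 5.95e-09) and 0.69 (adjusted p = 1.14e-08). PDK3, another such kinase, was at 0.58 in MUT35 and -0.29 in WT8. SLC16A3 (MCT4), the lactate exporter, was at 23.1, 27.9, 19.9 and 22.4 CPM with dox and at 55.5, 57.8, 48.1 and 60.7 after withdrawal, a log2 fold change of 1.25 (SE 0.14, adjusted p = 3.78e-08) that exceeded WT8 by 0.84 (adjusted p = 0.0094). On the other side, LDHB, the mitochondrial pyruvate carrier subunits MPC1 and MPC2, and the pyruvate dehydrogenase subunits PDHA1 and PDHB fell by 0.79, 0.73, 0.83, 0.37 and 0.72 on the log2 scale. Those falls were present in WT8 as well (-0.60, -0.61, -0.68, -0.27 and -0.87), and none of the 5 differences passed (adjusted p from 0.33 to 0.77).

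Of 8 genes of acid and base handling tested, 3 rose and 3 fell, beside 32% and 31.3% of all genes. With the GC trend removed 2 were higher and 1 lower, beside 26.9% and 26.5% of all genes. The difference from WT8 was higher in 1 and lower in 1, beside 5.78% and 5.29% of all genes. CA12, a membrane carbonic anhydrase, was at 6.04, 5.16, 6.74 and 6.77 CPM with dox and at 23.9, 26.6, 25.4 and 25.6 after withdrawal, and its log2 fold change of 2.04 (SE 0.12, adjusted p = 2.96e-13) was 2.37 above that of WT8 and 0.95 above that of MUT10 (adjusted p = 1.56e-09 and 0.0015). CA9, its close relative and a common marker of HIF activity in renal cancer, was near 0 in MUT35, at 0.108, 0.137, 0.164 and 0 CPM with dox and 0, 0, 0 and 0.108 after withdrawal, at most 2 counts in a library, and its fold in MUT35 is not given. CA9 in MUT10 was at 0.599, 0.918, 1.26 and 1.12 CPM with dox and 28.5, 21.3, 27.8 and 18.8 after withdrawal, and the difference between the clones' changes was -6.11 (adjusted p = 8.36e-04), a fitted value that depends on the prior count. CA2 and CA13 had log2 fold changes of -0.28 and -0.33, which were 0.07 and 0.07 with the GC trend removed, and SLC4A2 went from 0.65 to -0.00045; none of these 3 corrected values passed.

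BNIP3, BNIP3L, FAM162A and MXI1 rose in MUT35 and fell in WT8. BNIP3, a receptor that marks mitochondria for autophagy, was at 215, 210.1, 206 and 239 CPM with dox and at 369, 346, 350.0 and 347 after withdrawal. Its log2 fold change was 0.70 (SE 0.052, adjusted p = 3.94e-11), against -0.49 in WT8, a difference of 1.19 (adjusted p = 1.25e-11). BNIP3L (NIX), a related receptor, changed by 0.43 and -0.66, FAM162A, a mitochondrial protein induced by hypoxia, by 0.71 and -0.86, and MXI1, a MYC antagonist, by 0.98 and -0.17. These were the 4 of 9 mitophagy and respiratory chain genes tested that were higher in the difference from WT8, and none was lower. Within MUT35 the list had 5 higher and 4 lower, beside 32% and 31.3% of all genes. With the GC trend removed it had 5 higher and 3 lower, beside 26.9% and 26.5% of all genes. LONP1, a mitochondrial protease, was the other gene that rose (0.81), and by 0.37 in WT8 (adjusted p of the difference = 0.095). ISCU, which builds iron-sulphur clusters, and HIGD1A fell by 0.75 and 0.55 on the log2 scale, as they did in WT8 (-0.59 and -0.50). NDUFA4L2 and COX4I2, respiratory chain genes known as HIF targets, did not pass the filter on low counts, with at most 6 counts and no count in any MUT35 library.

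Of 14 secreted factors tested, 13 rose and none fell, with a median log2 fold change of 1.003. Corrected for GC content, the count was 12 higher and 1 lower, and it was 9 higher and 0 lower in the difference from WT8. IGFBP3, which binds insulin-like growth factors, was at 196, 206, 191 and 204 CPM with dox and at 919.9, 912, 895 and 860.1 after withdrawal. Its log2 fold change of 2.17 (SE 0.057, adjusted p = 4.11e-20) was among the 12 largest rises of the comparison and exceeded WT8 by 1.65 (adjusted p = 1.20e-13), while its difference from MUT10 was -1.07 (adjusted p = 8.75e-10). VEGFA, the angiogenic growth factor, was at 37.2, 34.6, 30.3 and 37.5 CPM with dox and at 80.98, 75.95, 80.8 and 89.99 after withdrawal, 2.35-fold higher. ADM (adrenomedullin), a vasodilator peptide, was at 6.48, 6.12, 5.91 and 6.31 CPM with dox and at 22.4, 22.1, 21.2 and 20.3 after withdrawal. The ADM change in WT8, -0.27, did not pass (adjusted p = 0.056), and the difference of 2.06 (adjusted p = 3.54e-10) was the largest of the list. ANGPTL4, a lipase inhibitor, rose from 3.09 ± 0.25 to 9.83 ± 1.1 CPM (SD, n = 4), and HILPDA, a lipid droplet protein, from 10.2 ± 0.77 to 24.3 ± 0.63. TGFA, a ligand of the EGF receptor, was at 53.4, 54.6, 51.9 and 54.3 CPM with dox and at 98.7, 92.6, 104 and 98.8 after withdrawal, 0.53 above WT8 on the log2 scale (adjusted p = 1.16e-04). EPO, STC1, CXCL12 and CXCR4 did not pass the filter, with at most 1 count in a library.

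Of 11 collagen hydroxylases and lysyl oxidases, 7 rose and 1 fell, 7 higher and 1 lower with the GC trend removed, and the difference from WT8 was 6 higher and 1 lower. LOX, a lysyl oxidase that crosslinks collagen, was at 151, 142, 152 and 139.7 CPM with dox and at 371, 385, 377 and 364 after withdrawal. P4HA2, a collagen prolyl hydroxylase, was at 112, 114, 108 and 124 CPM with dox and at 231, 255, 233 and 224 after withdrawal. Their log2 fold changes were 1.36 (SE 0.055, adjusted p = 5.51e-16) and 1.04 (SE 0.058, adjusted p = 2.55e-13), against -0.33 and -0.10 in WT8. LOXL2 rose by 0.75 (adjusted p = 9.72e-11), or 0.17 with the GC trend removed. P4HA1 and the lysyl hydroxylase PLOD2 had log2 fold changes of 0.02 and 0.21 in MUT35 where they fell in WT8 (-0.67 and -0.60), and both differences passed (0.69 and 0.82, adjusted p = 8.82e-05 and 3.26e-06). LOXL4 fell from 1.202 to 0.465 CPM, a difference from WT8 of -1.69 (adjusted p = 0.009). LOXL1 rose by 0.87 but was at 0.14 with the GC trend removed, which did not pass (adjusted p = 0.14).

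The list of nuclear, metabolic and signalling genes that HIF is known to raise had 23 of 25 members higher and none lower, a median log2 fold change of 0.84, and 18 members higher in the difference from WT8. Corrected for GC content, the count was 21 higher and 0 lower. NDRG1, a stress-response protein, was at 63.1, 67.9, 60.7 and 65.2 CPM with dox and at 272, 295, 273 and 299 after withdrawal, 4.43-fold higher. Its difference from WT8 was 1.83 (SE 0.11, adjusted p = 1.04e-11), and from MUT10 -1.28 (SE 0.1, adjusted p = 1.60e-09). GYS1, the glycogen synthase of most tissues, was at 61.9, 65.03, 62.3 and 66.3 CPM with dox and at 228, 253, 229 and 261 after withdrawal, and GBE1, the branching enzyme, rose by 0.64 where it fell in WT8 (-0.71). BHLHE40 (DEC1), a transcriptional repressor of the clock, was at 122, 125, 121 and 121 CPM with dox and at 221, 219, 233 and 220.1 after withdrawal, beside -0.03 in WT8, which did not pass (adjusted p = 0.68). AK4, a mitochondrial adenylate kinase, was at 478, 476, 516 and 477 CPM with dox and at 838, 818, 841 and 828 after withdrawal. ERO1A, which drives disulphide formation, INSIG2, which holds back cholesterol synthesis, and RORA, a nuclear receptor, rose by 0.84, 0.70 and 1.58 in MUT35, beside -0.49, -0.995 and -1.09 in WT8, where RORA did not pass (adjusted p = 0.12). KDM3A, a histone demethylase, and CITED2, a competitor of HIF for its coactivator, had log2 fold changes of 0.04 and 0.14 that did not pass (adjusted p = 0.68 and 0.066). AKAP12 rose by 0.85 where its change in MUT10 was -0.30 (difference 1.15, adjusted p = 8.75e-10).

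**Figure D3:**
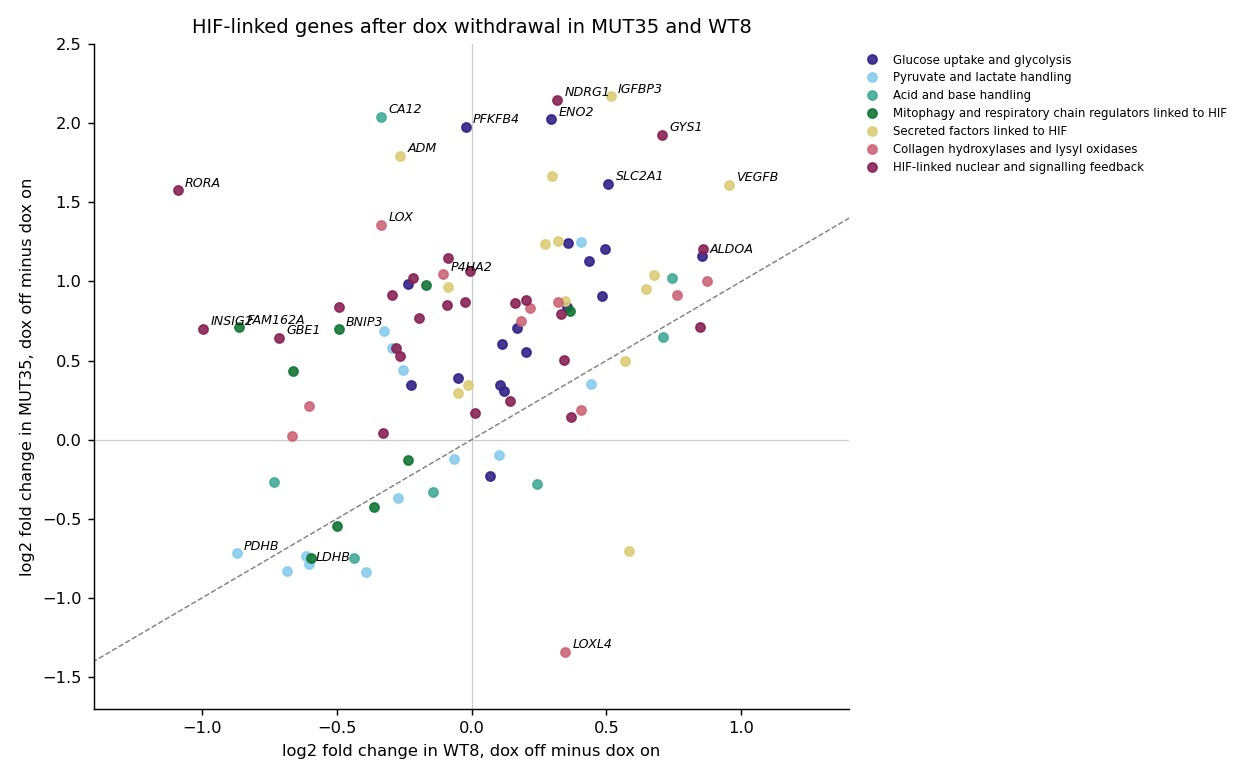
Log2 fold change, dox off minus dox on, in MUT35 (vertical axis) against WT8 (horizontal axis) for the HIF-linked genes tested except CA9, coloured by list. The dashed line marks equal change; most points lie above it, among them CA12, ADM and LOX, which rose in MUT35 and lie at or below 0 in WT8, while LDHB and PDHB lie near it and LOXL4 below.

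The 12 largest rises picked by the rule for named genes (mean count of at least 50, adjusted p under 0.05 and no overlap between groups) held IGFBP3 and NDRG1 beside genes outside the lists of HIF targets. SPNS2, which exports sphingosine-1-phosphate, was at 3.67, 4.74, 5.09 and 4.67 CPM with dox and at 31.01, 27.9, 29.9 and 27.6 after withdrawal, 6.34-fold higher. ARFGEF3, a regulator of vesicle traffic, was at 7.02, 5.43, 6.16 and 6.31 CPM with dox and at 37.2, 27.9, 30.3 and 37.7 after withdrawal. FXYD2, a regulatory subunit of the sodium pump in the tubule, was at 9.497, 10.9, 8.79 and 11.6 CPM with dox and at 49.7, 51.8, 44.6 and 50.9 after withdrawal. RIMKLA, a synthetase of N-acetylaspartylglutamate, went from 2.11 ± 0.19 to 9.91 ± 0.45 CPM (SD, n = 4). These 4 rose by more than in WT8, by 1.86, 2.08, 1.06 and 2.28 on the log2 scale (adjusted p at most 0.0019). The noncoding transcripts FER1L4, LOC154761 and ARHGEF34P also belonged to the 12, of which FER1L4 and LOC154761 exceeded WT8 (2.06 and 1.81) and the ARHGEF34P difference did not pass (adjusted p = 0.26).

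A pair of the 12 rises were transcripts that share sequence with a neighbour. NDUFC2-KCTD14, a readthrough of 2 adjacent genes on chromosome 11, was at 25.95, 33.7, 28.7 and 28.9 CPM after withdrawal and had no count in any dox on library, which makes it at least 90.5-fold higher against a floor of 3 counts in the shallowest dox on library (0.324 CPM). Its parents NDUFC2 and KCTD14 fell, from 118, 124, 121 and 112 to 58.6, 48.7, 49.6 and 39.99 CPM and from 23.96, 23.2, 22.7 and 23.7 to 2.48, 0, 4.12 and 0 CPM. In WT8 the readthrough likewise had no count with dox and was at 42.1 ± 2.3 CPM after withdrawal, and NDUFC2 and KCTD14 fell (-1.299 and -3.63). How RSEM divided reads among the 3 overlapping symbols is uncertain. PCNA-AS1, antisense to PCNA, was at 17.3, 22.4, 0 and 0 CPM with dox and at 61.1, 72.8, 57.2 and 68.3 after withdrawal, and the DESeq2 alternative did not call it (adjusted p = 0.162). The sources used here do not state whether strand was used in counting.

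CEMIP, which binds and breaks down hyaluronan, had the largest fall of the genes named by the rule. It was at 28.5, 29.8, 29.7 and 29.8 CPM with dox and at 1.18, 0.358, 0.542 and 0.753 after withdrawal, a log2 fold change of -5.34 (SE 0.2, adjusted p = 1.50e-16), or 40.4-fold lower. CEMIP also fell in WT8 (-5.28, difference -0.06, adjusted p = 0.98). MIR205HG, the host transcript of miR-205, was at 10.04, 9.55, 9.53 and 6.85 CPM with dox and at 0.861, 1.43, 0.433 and 0.645 after withdrawal. The MIR205HG change in WT8, -0.18, did not pass (adjusted p = 0.20), and its difference of -3.23 (SE 0.27, adjusted p = 2.54e-09) was the largest negative one by the rule. FGFR2, an FGF receptor of epithelia, was at 26.4, 26.2, 25.6 and 27.3 CPM with dox and at 5.92, 4.78, 6.501 and 8.28 after withdrawal. CYP24A1, which inactivates vitamin D, was at 37.6, 40.1, 37.8 and 38.6 CPM with dox and at 9.58, 13.1, 10.1 and 10.97 after withdrawal. Both fell in MUT35, neither passed in WT8 (adjusted p = 0.25 and 0.16), and the differences were -1.85 and -2.02 (adjusted p = 1.36e-07 and 4.24e-10). CFI, a protease of the complement system, went from 9.12 ± 0.45 to 1.69 ± 0.23 CPM (SD, n = 4), CDK15 from 9.95 ± 0.72 to 1.92 ± 0.34, and TRIM55, a ubiquitin ligase known from muscle, from 21.5 ± 2.4 to 4.57 ± 0.69. SFTA1P, a long noncoding RNA, HMGN5, a nucleosome-binding protein, and CENPE, a kinesin of the kinetochore, fell by 1.85, 2.07 and 2.04 on the log2 scale; the HMGN5 difference from WT8 did not pass (adjusted p = 0.85).

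Mitotic genes fell. Of 58 genes of G2, M phase and mitosis, 55 fell and none rose, beside 31.3% and 32% of all genes. The median log2 fold change of the 58 was -0.99, and with the GC trend removed all 58 fell (median -0.79). In WT8, 40 of the 58 fell and 12 rose (median -0.37). The difference from WT8 was lower in 50 and higher in none (median -0.67), beside 5.29% and 5.78% of all genes. The difference from MUT10 passed in 1 member. AURKA, a spindle kinase, was at 187, 196, 186 and 188 CPM with dox and at 84.96, 85.5, 88.3 and 81.2 after withdrawal. TPX2, its activator, was at 593, 612, 609 and 591 CPM with dox and at 303, 302, 323 and 285 after withdrawal. AURKA fell by 1.16 on the log2 scale (SE 0.05, adjusted p = 1.97e-15) against -0.23 in WT8, and TPX2 by 0.99 (SE 0.054, adjusted p = 2.19e-13) against -0.20. HMMR, a spindle protein and hyaluronan receptor, was at 97.03, 86.3, 98.2 and 103 CPM with dox and at 31.7, 27.7, 32.9 and 25.8 after withdrawal. The spread within each state was small beside these falls, with no overlap in any of the 3, as in 59.2% of all genes. Fewer cycling cells and less mRNA per cycling cell cannot be told apart in bulk RNA.

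Counts of this paragraph stand beside 31.3% lower and 32% higher in MUT35 over all genes, and 5.29% and 5.78% in the difference from WT8. Of 52 genes of DNA replication, 33 fell and 7 rose (median -0.31), 1 higher and 38 lower with the GC trend removed. In the difference from WT8, 14 were lower and none higher. RRM2, a subunit of ribonucleotide reductase, was at 560.4, 506, 559.9 and 558 CPM with dox and at 279, 274, 306 and 298 after withdrawal, a difference from WT8 of -0.69 (adjusted p = 4.73e-06). DBF4, which activates the replication kinase CDC7, fell by 1.42 on the log2 scale but by 1.05 in WT8, and that difference did not pass (adjusted p = 0.16). Among the 7 higher genes were the polymerase delta subunits POLD1 and POLD2 (0.79 and 0.85), of GC content 65.4% and 58.8%; with the GC trend removed they were at 0.10 and 0.38, and POLD1 no longer passed. In homologous recombination, 16 of 20 fell in MUT35 and 16 in WT8. The difference from WT8 was 4 lower and 1 higher, RAD51AP1 among the lower (-0.44, adjusted p = 0.03). With the GC trend removed that difference was 9 lower and 1 higher, beside 1280 lower and 1197 higher of 13467 genes. Of 18 G1 cyclins, CDKs and inhibitors tested, 6 rose and 4 fell (median -0.07), beside 32% and 31.3% of all genes. In the difference from WT8, 3 were higher and 1 lower. CDKN1A (p21), an inhibitor of cyclin-dependent kinases, was at 34.0, 37.3, 36.2 and 36.2 CPM with dox and at 86.5, 93.03, 88.7 and 97.7 after withdrawal, a log2 fold change of 1.35 (SE 0.08, adjusted p = 6.55e-13) that exceeded WT8 by 0.68 (adjusted p = 2.36e-04). CCND1 (cyclin D1) was at 4.32, 6.26, 4.93 and 6.31 CPM with dox and at 13.1, 14.9, 13.98 and 16.1 after withdrawal. CCND1 rose in MUT35 (1.39, adjusted p = 1.40e-09) and its change in MUT10 was -0.38, so that the clones differed by 1.77 (adjusted p = 8.10e-09).

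Mitochondrial and ribosomal genes moved both ways in MUT35 and in WT8, with more falls than rises in the 4 respiratory chain and ribosomal protein lists. Of 37 complex I genes, 21 were lower and 10 higher in MUT35, against 18 and 9 in WT8, and the difference was lower in 0 and higher in 1, NDUFB8. Of 40 genes of complexes II to IV and ATP synthase, 25 were lower and 8 higher in MUT35, against 22 and 11 in WT8, with 1 lower in the difference. COX7B, a subunit of cytochrome oxidase, was at 311, 347, 354 and 350.2 CPM with dox and at 150.0, 148, 164 and 113 after withdrawal, a fall of 1.25 on the log2 scale beside 1.15 in WT8 (adjusted p of the difference = 0.82). With the GC trend removed, 22 complex I genes and 23 of the others were lower in MUT35. UQCRC1, of complex III, rose by 0.68 in MUT35 and by 0.57 in WT8. Of 77 mitochondrial ribosomal proteins, 45 were lower and 12 higher in MUT35, against 36 and 20 in WT8, with 10 lower in the difference. No gene of the TCA cycle (19 tested), fatty acid oxidation (18) or the proteasome (31) passed for the difference from WT8; within MUT35 8, 7 and 17 of them were lower and 7, 5 and 3 higher, beside 31.3% and 32% of all genes. Of 74 cytosolic ribosomal proteins, 40 were lower and 19 higher in MUT35, against 40 and 21 in WT8. Of 45 ribosome biogenesis genes, 25 fell and 9 rose in MUT35, and the difference from MUT10 was higher in 25 and lower in 1 (median 0.36), or 35 and 1 with the GC trend removed (median 0.40), with LYAR, a nucleolar factor, among the higher (-1.33 in MUT35, -1.88 in MUT10, adjusted p = 0.028).

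AREG and EREG, ligands of the EGF receptor, fell while TGFA rose. AREG was at 171, 169.9, 150.0 and 174 CPM with dox and at 61.8, 63.7, 70.8 and 60.1 after withdrawal. EREG was at 769, 674, 711 and 689 CPM with dox and at 363, 352, 378 and 331 after withdrawal. Both fell in MUT35, by 1.37 and 1.00 on the log2 scale, and differed from WT8 (-1.68 and -0.88, adjusted p = 5.65e-14 and 3.72e-06). Of the 11 members tested of this family, 4 were lower and 2 higher in the difference. IL6, a cytokine, was at 39.7, 46.9, 41.97 and 45.6 CPM with dox and at 19.5, 24.1, 21.8 and 21.9 after withdrawal, a difference from WT8 of -1.099 (adjusted p = 5.24e-09), whereas TNFAIP3 (A20), which restrains NF-kappaB, was at 18.9, 19.5, 18.6 and 17.8 CPM with dox and at 40.9, 42.3, 40.1 and 42.6 after withdrawal, a difference from WT8 of 0.67 (adjusted p = 1.62e-05). The TNF and NF-kappaB list as a whole had 22 of 34 higher in MUT35 and 17 in WT8, with 4 higher and 2 lower in the difference. INHBA, an activin subunit, and TGFB2 fell by 1.02 and 0.73 on the log2 scale, both by more than in WT8 (adjusted p = 1.68e-05 and 1.08e-05). ATF3, a stress-response factor, was at 22.2, 21.9, 23.6 and 23.7 CPM with dox and at 40.7, 46.1, 41.6 and 43.9 after withdrawal, with log2 fold changes of -0.05 in WT8 and -0.06 in MUT10 that make it the highest in MUT35 of the 3 clones (adjusted p of the differences = 5.38e-08 and 1.89e-08).

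Matrix and adhesion genes moved both ways. Of 32 genes of epithelial-mesenchymal transition and matrix, 7 were higher and 11 lower in the difference from WT8. TNC (tenascin C) rose and was at 7.23, 7.84, 6.49 and 7.55 CPM with dox and at 20.1, 17.2, 14.3 and 15.5 after withdrawal. SERPINE2, an inhibitor of serine proteases, rose and was at 200.4, 205, 193 and 200.2 CPM with dox and at 344, 375, 368 and 359.8 after withdrawal. MMP1, a collagenase, fell and was at 36.5, 36.2, 32.03 and 41.3 CPM with dox and at 18.95, 15.05, 20.05 and 17.2 after withdrawal. The MMP1 change in MUT10 was 0.85 (difference -1.88, adjusted p = 8.75e-10). ITGB8, an integrin that activates TGF-beta, was at 62.9, 65.7, 67.5 and 60.3 CPM with dox and at 194, 167, 208 and 174 after withdrawal, a difference from WT8 of 1.65 (adjusted p = 2.87e-10). CLDN4, a tight junction claudin, rose from 21.7 ± 2 to 59.3 ± 3.6 CPM (SD, n = 4).

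Metallothioneins bind zinc and copper. Of 11 metallothionein and zinc genes tested, 7 fell and 1 rose in MUT35, 2 fell and 6 rose in WT8, and 5 were lower in the difference. The MUT35 count was 3 higher and 7 lower after GC correction. MT2A, the most abundant of those named, was at 2110.2, 2513, 1931 and 2196 CPM with dox and at 1766, 1809, 1554 and 1529.8 after withdrawal, a difference from WT8 of -0.54 (adjusted p = 0.0056), and MT1X was the gene that rose (0.41). These genes are near-identical copies, and counts may be split among them. Of 31 interferon-stimulated genes, 13 fell and 4 rose, with 1 higher and 5 lower in the difference from WT8. HMOX1 (haem oxygenase), an NRF2 target, was at 43.6, 43.6, 38.03 and 43.1 CPM with dox and at 154, 153, 156 and 168 after withdrawal, with differences of 1.13 from WT8 and -1.403 from MUT10 (adjusted p = 7.04e-06 and 1.61e-07). SCD, the fatty acid desaturase, and INSIG1, a regulator of cholesterol synthesis, rose by 0.88 and 0.70, more than in WT8 (adjusted p = 8.56e-07 and 8.98e-07). Of 18 clock genes, 6 were higher in the difference from WT8 and none lower, with BHLHE41 (DEC2) at 1.15 in MUT35 and -0.09 in WT8.

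Sphingosine-1-phosphate is a signalling lipid, and genes of its export, breakdown and receptors were among the 63.2% of all genes that changed in MUT35. Beside SPNS2, SGPP2, a phosphatase of the lipid, was at 3.13, 2.68, 2.71 and 3.11 CPM with dox and at 8.18, 9.43, 9.32 and 8.17 after withdrawal, a log2 fold change of 1.595 (SE 0.14, adjusted p = 9.40e-10), 1.505 above WT8 (adjusted p = 2.49e-04). The receptor S1PR1 was at 6.04, 5.09, 6.82 and 7.55 CPM with dox and at 1.29, 2.63, 3.36 and 2.795 after withdrawal, a log2 fold change of -1.33 and a difference from WT8 of -1.61 (adjusted p = 2.38e-06). S1PR5 fell too (-1.44), but its difference from WT8 did not pass (adjusted p = 0.20). The list had 7 of 10 higher and 2 lower in MUT35 (5 and 2 with the GC trend removed), beside 32% and 31.3% of all genes. In the difference from WT8 it had 2 higher and 1 lower, beside 5.78% and 5.29% of all genes.

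Receptors and feedback genes of FGF signalling numbered 21 tested, of which 12 rose and 4 fell in MUT35 (10 higher and 4 lower with the GC trend removed), against 14 and 2 in WT8. Of all 13900 genes, 32% rose and 31.3% fell in MUT35, and 4102 rose and 4144 fell in WT8. For the FGF genes the difference from WT8 was 2 higher and 4 lower, beside 5.78% and 5.29% of all genes. FGFR1, the main FGF receptor of mesenchymal cells, was at 46.4, 45.8, 40.9 and 49.4 CPM with dox and at 94.8, 104, 95.4 and 110.0 after withdrawal. FGFR1 rose by 1.15 (SE 0.088, adjusted p = 7.67e-11) on the log2 scale, and its difference from WT8 was 0.39 (adjusted p = 0.055) and did not pass, while that from MUT10 was 0.41 (adjusted p = 0.032). FGFR2 moved the other way, as described above. Among amino acid transporters, SLC1A1, a glutamate transporter of the tubule, was at 3.99, 4.74, 4.76 and 3.35 CPM with dox and at 13.2, 14.6, 14.7 and 9.25 after withdrawal, with log2 fold changes of 1.61 in MUT35, -0.60 in WT8 and 4.12 in MUT10 (adjusted p of the differences = 1.08e-06 and 0.013). SLC7A2, a transporter of basic amino acids, was at -0.81, a difference from WT8 of -0.91 (adjusted p = 4.74e-05).

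Lysosomal genes differed between the VHL-null clones. Of 30 tested, 12 rose and 8 fell in MUT35, and the difference from MUT10 was lower in 19 and higher in 0, against 6.7% lower over all genes. With the GC trend removed that difference was lower in 20 and higher in 2 of 29, beside 1214 lower and 1497 higher of 13467 genes. CTSD, the protease cathepsin D, was at 307, 339, 289.6 and 294 CPM with dox and at 681, 787, 688 and 784 after withdrawal in MUT35, a log2 fold change of 1.26 against 2.47 in MUT10. NPC2, which carries cholesterol in the lysosome, fell in MUT35 (-0.57) and differed from both other clones (-0.50 from WT8 and -0.55 from MUT10, adjusted p = 3.08e-05 and 9.19e-06). For genes of cholesterol and fatty acid synthesis the difference from MUT10 was lower in 10 of 28 and higher in 1, or 14 and 1 with the GC trend removed.

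Over all genes, 32% rose, 31.3% fell, and the difference from WT8 was higher in 5.78% and lower in 5.29%. In the integrated stress response list, 15 of 34 rose, 10 fell and the difference from WT8 was 8 higher and 0 lower. For ER chaperones and the unfolded protein response the counts were 8 and 6 of 25, with 6 higher and 0 lower in the difference, and HERPUD1, which serves ER-associated degradation, was at 52.99, 52.2, 53.6 and 48.7 CPM with dox and at 87.1, 86.5, 91.3 and 90.3 after withdrawal (0.54 above WT8, adjusted p = 7.13e-06). Of 23 p53 targets, 12 rose and 5 fell, and 4 were higher than in WT8. AP-1 and immediate early genes had 12 of 22 higher, with 6 higher and 1 lower in the difference from WT8. Without GC correction EGR1 was the member that fell (-0.53, adjusted p = 0.023), a call lost in 2 alternatives (adjusted p up to 0.0734). KLF10, an early response factor, exceeded WT8 by 0.45 (adjusted p = 1.77e-04). In the MYC network, 9 of 11 rose and 5 exceeded WT8, MXD1, a MYC antagonist, among them (0.48, adjusted p = 0.0014). With the GC trend removed, p53 targets had 8 higher and 4 lower in MUT35, and their median went from 0.34 to 0.053. AP-1 genes then had 11 higher and 3 lower, and the MYC network 8 and 1. The integrated stress response had 12 and 10 of 31, and ER chaperones 11 and 4. All genes had 26.9% higher and 26.5% lower with this correction.

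In other lists, to be read against 5.78% higher and 5.29% lower over all genes, the difference from WT8 was 2 higher and 0 lower for NRF2, glutathione and pentose phosphate genes (22 tested), 2 higher and 0 lower for iron genes (13), 2 higher and 2 lower for lipid droplet genes (10), 2 higher and 0 lower for collagens (15) and 2 higher and 1 lower for integrins and laminins (22). Keratins and junctions gave 2 higher and 3 lower of 20, TGF-beta, activin and BMP signalling 2 higher and 3 lower of 26, hyaluronan turnover 0 higher and 2 lower of 7 and snoRNA host genes 0 higher and 0 lower of 18. KRT15, a keratin of basal cells, had a log2 fold change of -1.397 in MUT35 where its WT8 change was 0.56 (difference -1.96, adjusted p = 0.024), at 0.432, 1.44, 0.986 and 0.857 CPM with dox and at 0.323, 0.597, 0.108 and 0.430 after withdrawal. OSGIN1, an NRF2 target, rose in MUT35 and WT8 (1.66 and 1.32), as did TGFB1 (1.04 and 0.67) and COL18A1, a basement membrane collagen (1.23 and 0.81), and none of the 3 differences passed. GAS5, a snoRNA host, fell in both (-0.82 and -0.94).

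**Figure D4:**
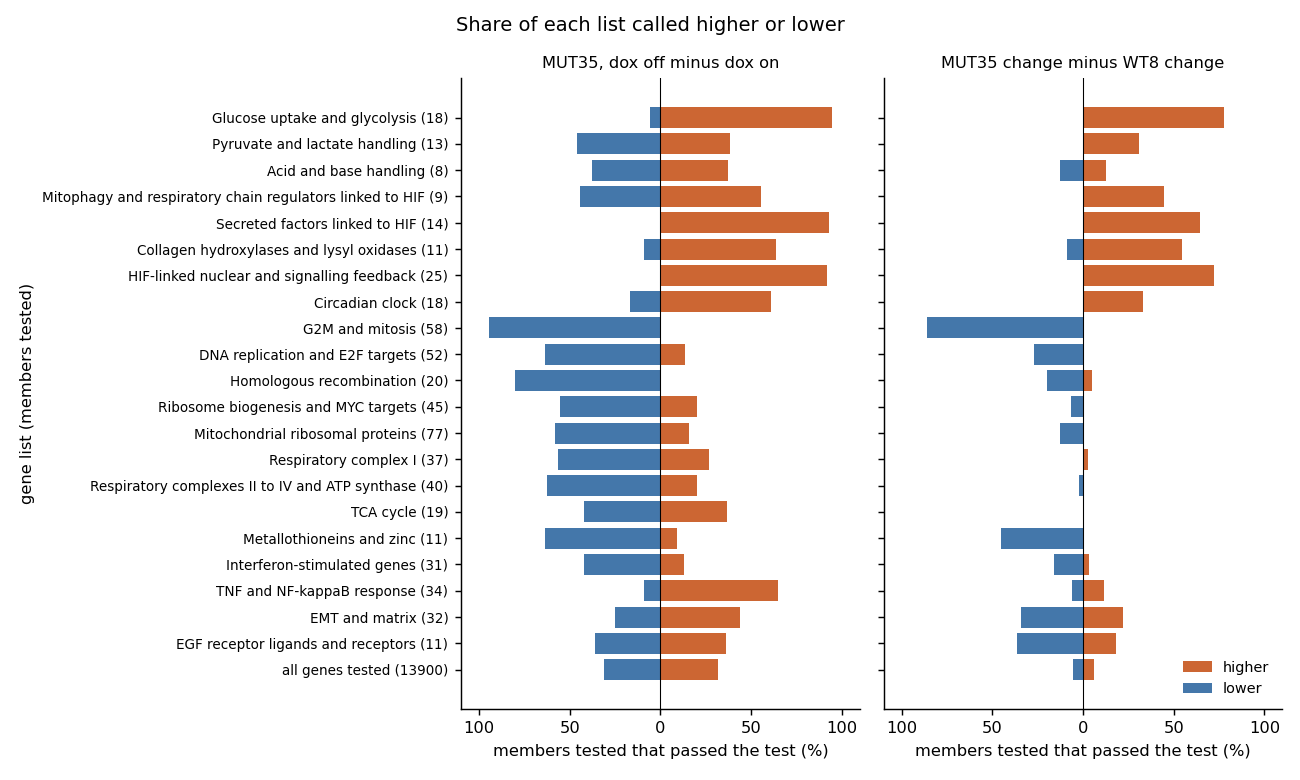
Percent of the tested members of each list that were called higher (orange, right) or lower (blue, left) in MUT35, dox off minus dox on (left panel), and in the difference between the MUT35 and WT8 changes (right panel); member counts are in parentheses and the last row is all 13900 genes. The glycolysis, secreted factor and nuclear feedback lists extend mainly to the right and G2M genes to the left in both panels, while respiratory chain and TCA cycle bars nearly vanish in the right panel.

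Of 1539 genes that differed from WT8, those with the largest positive differences by the rule were TRABD2B, PTPRN, PALM2-AKAP2, NEFL, CA12 and DPYSL4. NEFL, a neurofilament subunit, was at 10.6, 8.45, 8.79 and 9.19 CPM with dox and at 27.2, 29.3, 29.8 and 28.3 after withdrawal; its log2 fold change was 1.64 in MUT35, -0.75 in WT8 and 2.94 in MUT10. PTPRN, a secretory granule protein, and DPYSL4, a relative of collapsin response mediators, were low. PTPRN was at 0, 0.206, 0.411 and 0.0779 CPM with dox and at 1.51, 1.07, 2.49 and 1.72 after withdrawal. DPYSL4 was at 0.324, 0.756, 0.493 and 0.623 CPM with dox and at 2.26, 4.299, 3.68 and 3.76 after withdrawal. TRABD2B, an inhibitor of Wnt ligands, was at 8.09, 8.87, 7.97 and 10.4 CPM with dox and at 29.2, 33.1, 32.7 and 33.97 after withdrawal, and its adjusted p of 0.039 for the difference rose to 0.349 without WT8 dox on replicate 2, one of 12 alternatives that lost the call. PALM2-AKAP2 is a readthrough symbol whose counts may be shared with its parents. On the negative side were MIR205HG, FGFR2 and CYP24A1, described above, and TMEM173 (STING), SDPR and FAM72C, of which the first 2 were under 1.1 CPM in every MUT35 library and FAM72C belongs to a family of near-identical copies. The call on FAM72C was lost in 12 alternatives and that on TMEM173 in 3, with adjusted p up to 0.141 and 0.0759.

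MUT10 and MUT35 differed in 1544 genes (11.1%), with the MUT35 change higher in 613 (4.41%) and lower in 931 (6.7%); this comparison uses the same MUT35 libraries as the one with WT8. After GC correction the split was 1497 higher and 1214 lower, and with library size alone as the scaling 811 and 781. Without MUT10 dox off replicate 4 it was 840 and 1057. HTRA1, a secreted protease, was at 68.9, 67.2, 67.6 and 76.5 CPM with dox and at 93.8, 93.5, 92.6 and 89.1 after withdrawal in MUT35, a log2 fold change of 0.40 against 3.44 in MUT10. SLCO4C1, an organic anion transporter of the proximal tubule, was at 38.3, 37.9, 41.2 and 36.1 CPM with dox and at 66.3, 62.7, 76.9 and 66.3 after withdrawal, 0.83 against 3.02. KCNJ15, a potassium channel, SLC29A4, a monoamine transporter, and CHI3L1, a chitinase-like glycoprotein, had smaller changes than in MUT10 (differences -2.04, -2.36 and -2.18), and CHI3L1 did not pass within MUT35 (adjusted p = 0.83). In the other direction, CRISPLD2, a secreted protein, was at 218, 221, 229 and 216 CPM with dox and at 138, 138, 141 and 143 after withdrawal, a fall of 0.66 on the log2 scale in MUT35 against -3.06 in MUT10. TAGLN (transgelin), an actin-binding protein, was at 7.55, 7.08, 5.67 and 7.32 CPM with dox and at 15.5, 18.03, 15.2 and 17.3 after withdrawal, and it rose in MUT35 (1.26) where its change in MUT10 was -0.55. CLDN16, a claudin of the tubule, did not pass within MUT35 (-0.27, adjusted p = 0.34) against -2.18 in MUT10. CEMIP, NETO1 and NDUFC2-KCTD14 completed the 6; NETO1, a receptor-associated membrane protein, had at most 0.538 CPM in MUT35, with overlapping libraries, and the NDUFC2-KCTD14 difference of 6.32 fell to 0.07 without MUT10 dox on replicate 2. That call was lost in 13 alternatives, among them limma-voom (adjusted p = 0.291) and the replicate block (adjusted p = 0.136), and the NETO1 call in 2 (adjusted p up to 0.075).

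**Figure D5:**
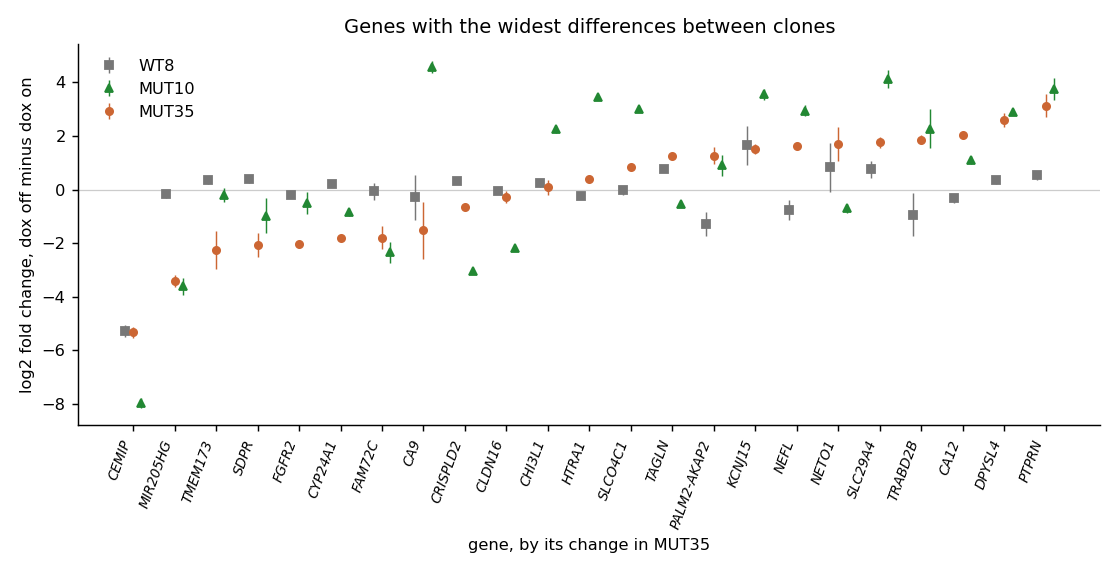
Log2 fold change, dox off minus dox on (vertical axis), with its standard error in WT8 (squares), MUT10 (triangles) and MUT35 (circles), for the 23 genes with the largest differences between MUT35 and either clone, NDUFC2-KCTD14 left out (horizontal axis, ordered by MUT35). CEMIP lies far below 0 in all 3 clones, MIR205HG in MUT35 and MUT10, and CA9, HTRA1 and SLCO4C1 rise far more in MUT10.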

How the data were processed

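RNA-seq libraries from 3 clones of the HK2 cell line, with and without dox (4 per group, 24 in all), were grouped by title, genotype and treatment labels. Per the submitters' processing notes and the methods, the authors aligned reads to hg38 with Bowtie2 and estimated gene-level abundance with RSEM; versions are not given in the sources used here. The labels and the methods name different library kits, and neither states the strand setting. The deposited values are expected counts for 26475 gene symbols, estimated by the authors and not normalized, and were rounded here to whole numbers; 5712 symbols then had no count in any library. No separate library total was used.

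Counts were filtered with filterByExpr (13900 genes kept), scaled by TMM and fitted with edgeR 4.0.16 (glmQLFit and glmQLFTest, R 4.3.3) over 6 group means; the common biological coefficient of variation was 8.37%. Fitting all 24 libraries shares 1 estimate of the spread between clones. The contrasts tested were the withdrawal change of MUT35 and how far it differed from the changes of WT8 and MUT10. P-values were adjusted by Benjamini-Hochberg over all genes tested, with a threshold of 0.05. The steps were tested on simulated data with known fold changes. Alternatives were DESeq2 1.42.0, limma-voom (limma 3.58.1), other scalings and filters, MUT35 libraries alone, a replicate block, a per-library spline on transcript GC content (GENCODE 44, mean of a gene's protein-coding transcripts, or of all where it has none, 13467 genes matched by symbol) and leaving out each library. Floors (3 counts) cover counting error only. SDs are over the libraries of a group, and SEs come from the quasi-likelihood test, so both include the spread between libraries.

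Named genes were VHL, the ligase, HIF subunits and hydroxylases, the 12 largest rises and falls (mean count of at least 50, no overlap between groups), up to 4 members per direction of each HIF-linked list and 2 of each other list by smallest adjusted p, and the 6 largest differences per direction and clone. Other members were named after their values were seen. The members, the lists and this rule were chosen with earlier results of these data known. Of 1225 list symbols, 1 was not matched. Some genes that met the rule are not reported here.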

Additional observations from a re-analysis of the deposited data

Results flagged for a closer look

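In 9 of the 148 groups of 4 libraries examined (74 genes, each with dox on and dox off), 1 library lay apart from the other 3 by Dixon's criterion, where chance alone gives about 1 in 20. These were EGLN2 in MUT35 dox on replicate 1 (16.7 CPM, group median 14.7), CEMIP in MUT35 dox on replicate 1 (28.5 CPM, group median 29.7), MIR205HG in MUT35 dox on replicate 4 (6.85 CPM, group median 9.54), LONP1 in MUT35 dox off replicate 3 (62.6 CPM, group median 74.9), FUNDC1 in MUT35 dox off replicate 4 (11.4 CPM, group median 12.6). The others were LOXL1 in MUT35 dox on replicate 4 (18.8 CPM, group median 21.2), LOXL4 in MUT35 dox on replicate 4 (1.71 CPM, group median 1.06), BHLHE40 in MUT35 dox off replicate 3 (233 CPM, group median 221) and AK4 in MUT35 dox on replicate 3 (516 CPM, group median 477). The part of these libraries in each gene's result is covered by the alternatives that leave out a library.

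The change on withdrawal differed between MUT35 and WT8, tested as an interaction in edgeR, for 12 genes named by rule. In log2 units the difference was TRABD2B 2.80, PTPRN 2.61, PALM2-AKAP2 2.56, NEFL 2.39, CA12 2.37 and DPYSL4 2.23 where MUT35 was higher, and MIR205HG -3.23, TMEM173 -2.60, SDPR -2.47, CYP24A1 -2.02, FGFR2 -1.85 and FAM72C -1.73 where it was lower. Between MUT35 and MUT10 it was NDUFC2-KCTD14 6.32, CEMIP 2.63, CRISPLD2 2.40, NETO1 2.40, CLDN16 1.92 and TAGLN 1.80 where MUT35 was higher, and CA9 -6.11, HTRA1 -3.05, SLC29A4 -2.36, SLCO4C1 -2.19, CHI3L1 -2.18 and KCNJ15 -2.04 where it was lower. The fitted values of NDUFC2-KCTD14 and CA9 rest on groups at or near 0 counts and depend on the prior count.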

How the results depend on the processing

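Removing the GC trend was the alternative that turned directions within MUT35. The log2 fold change, with the trend removed, with the trend removed and the replicate block, and with the trend removed in MUT35 libraries alone, an alternative chosen after seeing the data, was TCEB2 -0.25, -0.26 and -0.27, EPAS1 -0.13, -0.13 and -0.13, EGLN2 -0.38, -0.39 and -0.40, CA2 0.075, 0.078 and 0.086, CA13 0.071, 0.076 and 0.083, FUNDC1 0.11, 0.11 and 0.12, MGA 0.072, 0.069 and 0.082, FGF2 0.062, 0.058 and 0.076. It was CANX 0.044, 0.045 and 0.057, TFRC 0.022, 0.022 and 0.035, CLOCK 0.0038, 0.0076 and 0.017, HYAL2 -0.15, -0.15 and -0.17, LUM 0.40, 0.41 and 0.42, CLDN16 0.0076, 0.036 and 0.027 and CHI3L1 -0.20, -0.20 and -0.21. SLC4A2 turned in the first and last of these (-0.00045 and -0.024), and ITGB1, TJP1 and LAMP2 in the last (0.012, 0.0041 and 0.0069). Without MUT35 dox off replicate 3 or dox on replicate 1, CHI3L1 was at -0.17 and -0.0029, within a range of -0.17 to 0.25 over the libraries left out. Of 4841 values for single genes under all alternatives, 4663 kept their direction and side of the threshold, 124 lost the call, 2 gained it and 52 reversed.

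Genes over 2-fold in MUT35 numbered 348 higher and 240 lower with the GC trend removed, 352 and 239 with the block added, 285 and 192 in MUT35 libraries alone with the trend removed, and 486 and 341 with at least 10 counts in every library, a filter that tests fewer genes. Genes lower than in WT8 numbered 1280 with the GC trend removed and 1245 with the block added, and genes higher than in MUT10 1497 and 1504. With at least 10 counts in every library, 105 were over 2-fold higher and 53 lower than in WT8, and 33 higher and 120 lower than in MUT10. The cause was not tested.

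With a replicate block, 4414 genes were higher and 4323 lower in MUT35, and 787 and 551 over 2-fold. The labels do not say what the replicate numbers mark, so the main fit did not pair the libraries by number. Deviations of same-numbered dox off and dox on libraries correlated at 0.088, 0.063, 0.16 and 0.072, against -0.104 to 0.0215 for different numbers. Each dox off library correlated best with its own number. Whether the numbers mark pairs was not tested, and the replicate block is the alternative that allows for it. Leaving out 1 library gave 4131 to 4329 genes higher and 4049 to 4212 lower in MUT35, 668 to 733 and 606 to 692 against WT8, and 505 to 840 and 773 to 1057 against MUT10. Depth limits the genes near 0 counts, such as CA9 in MUT35, which had at most 2 counts in a library.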
